A study of Homo sapiens with 16 samples.

Results

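The genes for 7SK, 7SL and Y RNA were taken as every row of the count table whose symbol begins with RN7SK, RN7SL or RNY followed by a number, or is RN7SK itself. This gave 1030 of 58787 rows: 294 in the RN7SK family, 680 in the RN7SL family and 56 in the RNY family. The 7 genes without the pseudogene letter P (RN7SK, RN7SL1, RN7SL2, RN7SL3, RNY1, RNY3 and RNY4) are called canonical here, and the other 1023 are called copies. No row carries the symbol RNY5. The cells were IMR32, an established human neuroblastoma line with MYCN amplification, labelled with neuroblast as the cell type and brain as the tissue. They received 1 of 3 siRNAs against TPX2, a spindle assembly factor, named si45, si46 and si47, or the non-targeting siRNA siNTC. Each of these 4 groups had 4 libraries, described as biological replicates, and the column headers give 48 h for all of them. All 16 libraries come from this 1 cell line, and the way the siRNAs were delivered is not given in the sources used here.

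RNA polymerase III makes all of these RNAs in human cells, and its transcripts normally end in a short run of U. 7SK is the scaffold of a nuclear particle in which HEXIM1 or HEXIM2 holds the elongation kinase P-TEFb inactive, with LARP7 and MEPCE keeping the RNA stable. 7SL is the scaffold of the signal recognition particle, which directs ribosomes making secreted and membrane proteins to the endoplasmic reticulum. Y RNAs bind the Ro60 protein and have been linked to RNA quality control and the start of DNA replication. Each family has left many pseudogene copies across the genome, often inside the introns of other genes. The libraries were made with a 3' kit of the QuantSeq type, whose first strand is normally primed from stretches of A. A count therefore stands for RNA that such a primer reached, and not for the whole pool of an RNA without a long poly(A) tail.

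The first 30 bases of RN7SK are shown with the same bases of 5 copies that rose and of RN7SKP266, a tested copy that did not. Reads of a 3' kit need not come from this stretch, so it does not show which loci share reads. RN7SKP175, which also rose and keeps 80.8% of the first 240 bases, is not shown. Neither is RN7SKP30, a tested copy that did not rise, since its alignment has a gap in these bases. RN7SKP30 keeps 89.2% of the first 240 bases, so the copies shown do not set those that rose apart from the others. Capitals mark bases that differ from RN7SK. The sequences are from GENCODE release 29 transcripts on GRCh38.
RN7SK: gatgtgagggcgatctggctgcgacatctg
RN7SKP255: gatgtgagggcgatctggctgcgacatctg
RN7SKP118: gatgtgagggTgatctggctgTgacatctg
RN7SKP160: gatAtgagggcgatctgActgTgacatctg
RN7SKP48: gatgtgagggcAatctggctgcAaTatctT
RN7SKP292: gatgtgagggcgatTtggctgTCaTatctg
RN7SKP266: TatgtgaAAgcAatctgActgcAacatctg
RN7SK lies at chr6:52995621-52995948 on the plus strand, and the printed bases are chr6:52995621-52995650. RN7SKP255, at chr14:89712511-89712823 on the plus strand, had 0 differences from RN7SK in this stretch. RN7SKP118 differed at 2 bases, RN7SKP160 at 3, RN7SKP48 and RN7SKP292 at 4 each, and RN7SKP266 at 6.

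The last 30 bases of the canonical Y RNA genes follow, with the closing run of T in capitals, since the pairing of this 3' end with the 5' end forms the stem that Ro60 binds.
RNY1: cttctcactactgcacttgactagtcTTTT
RNY3: actcccactgcttcacttgactagccTTTT
RNY4: ccccccactgctaaatttgactggcTTTTT
These 3 genes sit on chromosome 7, RNY1 at chr7:148987136-148987248 on the minus strand, RNY3 at chr7:148983755-148983856 and RNY4 at chr7:148963315-148963410, both on the plus strand.

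The libraries held 5318159 to 7864343 counts. TPX2 fell by 2.01 (SE 0.0886) on the log2 scale over the 3 siRNAs together, and its level was below every control library in 12 of 12 knockdown libraries. All 16 neuroblast markers were tested (summed level 7522 to 7962 CPM in siNTC, 8092 to 8980 with si45, 8281 to 9201 with si46 and 8480 to 9523 with si47, CPM being counts per 1000000 of the TMM library size), 0 of 11 glial and microglial markers were (summed level at most 2.03 CPM in any library), and 0 of 8 blood and endothelial markers were (at most 3.04 CPM). Of 9 mesenchymal markers, 4 were tested, with a summed level of 265 to 330 CPM over all libraries.

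Most of the loci had no counts at all: 677 of the 1030 were at 0 in all 16 libraries, and 353 had at least 1 count. Only 46 passed the filter on low counts and were tested, namely 5 canonical genes and 41 copies (8 of RN7SK, 28 of RN7SL and 5 of RNY). The 307 others with a count held 4221 of the 34157 counts of all members. RNY1 alone held 8651 counts over the 16 libraries, RN7SL1 2613 and RNY4 2344, while the fullest copy, RN7SL674P, held 1732.

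In the mean of the 3 siRNAs against siNTC, 10 of the 46 tested members rose and 0 fell (edgeR quasi-likelihood test, adjusted p under the threshold of 0.05), where 3.61% of all 14193 tested genes rose and 3.53% fell. At an unadjusted p under 0.05 the number was 14, and DESeq2 called 11. The shares of all tested genes called in these ways are not given here, so these numbers cannot be set against them. The 10 were RNY1, RNY4, RN7SL1, RN7SL336P and the RN7SK copies RN7SKP160, RN7SKP118, RN7SKP48, RN7SKP175, RN7SKP255 and RN7SKP292. A locus with almost no control counts could enter the test only if the knockdown libraries held counts, so the total is no measure of how the loci as a whole behaved. Among the 30 tested members with a mean control count of at least 10, 3 rose and 0 fell, and these were RNY1, RNY4 and RN7SL1. The number called over the 3 siRNAs was 6 without the 4 libraries numbered 1, an alternative chosen after the data were seen. With no filter on low counts it was 15 of 353, with 12 higher and 3 lower. The 3 were RNY4P3, RN7SL47P and RN7SL622P, with 7, 32 and 20 counts in all. Leaving out replicate 3 of si45 or replicate 4 of si47 also gave 1 member that fell, so the absence of falls depends on the filter and the libraries.

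By siRNA, 4 members rose with si45 (1.01% of all tested genes rose), 9 with si46 (2.14%) and 9 with si47 (4.91%). With si47 1 member fell, RN7SKP30 (4.83% of all tested genes fell), and with si45 and si46 0 fell (0.324% and 1.25% of all tested genes fell). At an unadjusted p under 0.05 the numbers in either direction were 11, 13 and 15, and DESeq2 called 7, 10 and 12, again without the shares of all tested genes. RNY4, RN7SKP160, RN7SKP118 and RN7SKP48 passed with each siRNA. The call of RN7SKP48 with si45 (adjusted p = 0.0349) was lost in 7 of 21 alternatives: without replicate 1, 3 or 4 of siNTC, replicate 1, 2 or 3 of si45, or all libraries numbered 1 (adjusted p up to 0.381). The number for si45 was 7 without replicate 3 of si46 and 9 when the replicate number entered as a block. Without all libraries numbered 1 it was 5 for si46, and 6 in either direction for si47.

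RNY1 was the most abundant member. Its counts were 318, 377, 258 and 354 in siNTC, 606, 624, 430 and 422 with si45, 1084, 554, 453 and 508 with si46, and 982, 567, 577 and 537 with si47. Its level was 54.9 ± 6.08 CPM (SD, n = 4) in siNTC, 85.7 ± 10.3 with si45, 102 ± 25.5 with si46 and 111 ± 29.04 with si47. Every knockdown library lay above every control library, and replicate 1 of si46 and of si47 lay furthest up. Over the 3 siRNAs RNY1 rose by 0.85 on the log2 scale (SE 0.151, edgeR adjusted p = 0.00149). With each siRNA alone it was 0.64 for si45 (adjusted p = 0.0935, past the threshold in 7 of 22 alternatives), 0.90 for si46 (0.00693) and 1.02 for si47 (0.00099).

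RNY4 had the largest log2 fold change of the 5 tested canonical genes. Its counts were 60, 70, 43 and 41 in siNTC, 209, 160, 104 and 89 with si45, 320, 191, 132 and 156 with si46, and 293, 120, 154 and 202 with si47. The level went from 8.93 ± 1.68 CPM in siNTC to 22.9 ± 7.15, 31.5 ± 7.80 and 31.9 ± 10.7 with si45, si46 and si47. The groups did not overlap with siNTC: 12 of 12 knockdown libraries were above the highest control. The log2 fold change over the 3 siRNAs was 1.67 (SE 0.222, edgeR adjusted p = 3.28e-05), and it was 1.36, 1.82 and 1.83 with si45, si46 and si47 (adjusted p = 0.00479, 0.000113 and 4.33e-05).

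RNY3 did not pass the test. Its counts were 26, 61, 41 and 57 in siNTC, 76, 59, 44 and 40 with si45, 193, 63, 54 and 72 with si46, and 124, 73, 71 and 53 with si47. The level was 7.82 ± 2.61 CPM in siNTC, 8.98 ± 1.98 with si45, 14.6 ± 6.77 with si46 and 13.4 ± 4.42 with si47. The groups overlapped, with 7 of 12 knockdown libraries above the highest control and replicate 1 the highest in each knockdown group. The log2 difference over the 3 siRNAs was 0.63 (SE 0.25, edgeR adjusted p = 0.134).

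RN7SL1, at chr14:49586580-49586878 on the plus strand, rose by a smaller factor. Its counts were 124, 110, 87 and 94 in siNTC, 190, 175, 117 and 126 with si45, 346, 256, 130 and 137 with si46, and 253, 220, 110 and 138 with si47. The level was 17.4 ± 1.66 CPM in siNTC, 25.0 ± 3.94 with si45, 34.3 ± 12.5 with si46 and 30.3 ± 11.1 with si47. In every knockdown group replicates 1 and 2 were higher than replicates 3 and 4, and 11 of 12 knockdown libraries lay above the highest control. The log2 fold change over the 3 siRNAs was 0.77 (SE 0.219, edgeR adjusted p = 0.0396), and of the single siRNAs si46 passed (0.98, adjusted p = 0.041, lost in 9 of 22 alternatives, 8 of which left out 1 library: any siNTC library, replicate 2 or 4 of si45, or replicate 1 or 2 of si46). The call over the 3 siRNAs was lost in 8 of 22 alternatives: on leaving out any 1 siNTC library, replicate 1, 2 or 4 of si45, or all libraries numbered 1 (adjusted p up to 0.135). The gene overlaps an exon of an unnamed same-strand record, AL139099.4, and lies opposite RPS29. Since the use of strand in the counting is not given, reads of the opposite gene cannot be told apart from its own.

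RN7SL2, at chr14:49862550-49862849 on the minus strand, stood just outside the threshold. Its counts were 39, 52, 27 and 50 in siNTC, 110, 73, 59 and 69 with si45, 171, 78, 65 and 57 with si46, and 139, 133, 45 and 47 with si47. The level was 7.02 ± 1.65 CPM in siNTC and 12.8 ± 3.03, 14.3 ± 5.11 and 15.3 ± 8.82 with si45, si46 and si47. All 8 libraries of si45 and si46 lay above the highest control, but replicates 3 and 4 of si47 fell within the control range. The log2 difference over the 3 siRNAs was 1.01 (SE 0.304, edgeR adjusted p = 0.0507), and 10 of 22 alternatives put it past the threshold, DESeq2 among them. RN7SL1 and RN7SL2 match each other closely, so the way shared reads were assigned, which is not given in the sources used here, bears on how the counts split between them.

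**Figure D1:**
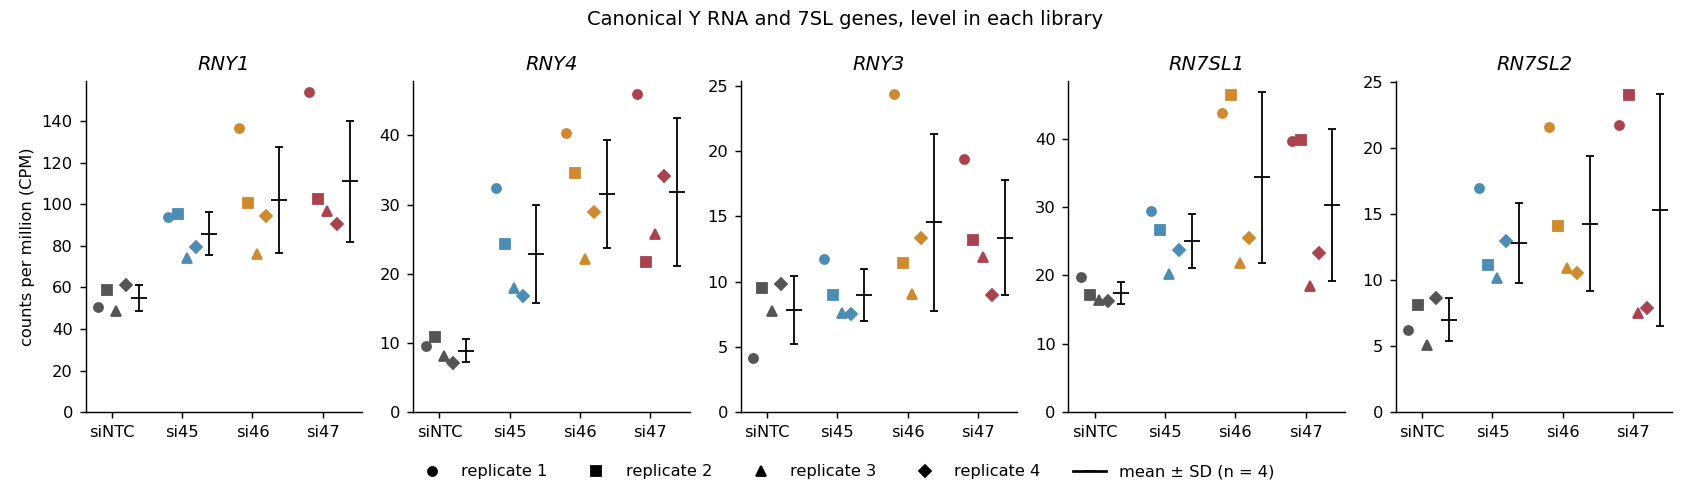
Level in CPM (vertical axes, each from 0) of the 5 canonical genes that were tested, in siNTC and the 3 TPX2 siRNA groups. Symbols are single libraries by replicate number and the bar is the mean with its SD (n = 4). RNY1 and RNY4 show no overlap between the 12 knockdown and the 4 control libraries, while 1 knockdown library of RN7SL1 and more of RN7SL2 and RNY3 lie within the control range.

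RN7SL3 and RN7SK had almost nothing. RN7SL3 had 3 counts in all, 2 in replicate 2 and 1 in replicate 3 of si46. RN7SK itself, the 7SK gene, had 0 counts in all 16 libraries, which by counting error alone allows up to 3 counts a library, or 0.379 to 0.566 CPM. A second record on the same strand, with the symbol 7SK, spans the same bases and was also at 0. How a read matching both records, or matching RN7SK and its copies, was counted is not given in the sources used here. The 0 therefore cannot be read as absence of 7SK RNA, and the counts of the copies cannot be tied to 1 locus each.

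Per kilobase of gene, the control levels ran from 485.6 CPM per kb for RNY1 to 93.0 for RNY4, 76.6 for RNY3, 58.2 for RN7SL1 and 23.4 for RN7SL2. RNY1 (430.5 to 542 CPM per kb over the 4 control libraries) stood clear of the next gene. The ranges of RNY4 (73.9 to 114) and RNY3 (40.8 to 96.7) overlapped, as did those of RNY3 and RN7SL1 (54.4 to 66.3). RN7SL1 and RN7SL2 (17.0 to 28.8) did not overlap. This order rests on the division by length, although counts of a 3' kit need not grow with length: in CPM, RN7SL1 (17.4) stood above RNY4 (8.93), RNY3 (7.82) and RN7SL2 (7.02).

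The canonical genes did not all move by the same factor. The ratio between 2 genes within a library does not depend on the scaling, so the 10 pairs of the 5 tested genes were compared between the 4 control and 12 knockdown libraries, a comparison chosen after the data were seen. The log2 ratio of RNY1 to RNY4 counts fell from 2.63 ± 0.33 (SD, n = 4) to 1.82 ± 0.27 (SD, n = 12), and was below every control library in 12 of 12 (exact permutation test, two-sided, p = 0.000549, the smallest that 1820 arrangements can give, 0.00549 after Benjamini-Hochberg adjustment over 10 pairs). RN7SL1 to RNY4 went from 0.98 to 0.05 (adjusted p = 0.0055 by the same exact test, below every control in 11 of 12). RNY3 to RNY4 went from -0.25 to -1.25 (exact adjusted p = 0.011, 7 of 12), so in these libraries RNY4 changed by a larger factor than RNY1, RNY3 and RN7SL1. The test pools the 12 knockdown libraries of the 3 siRNAs, so its p does not measure the spread between siRNAs. By siRNA the mean log2 ratio of RNY1 to RNY4 was 1.95 with si45, 1.69 with si46 and 1.83 with si47. RN7SL2 to RNY4 missed the threshold (exact adjusted p = 0.121), and reached 0.0256 without replicate 2 of si47. The 6 pairs without RNY4 had adjusted p from 0.45 to 0.79, although RNY1 to RNY3 reached 0.044 without replicate 1 of siNTC, the library with the fewest RNY3 counts, and 0.0152 without all libraries numbered 1.

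Of the 8 tested RN7SK copies, 6 rose over the 3 siRNAs, and 5 of the 6 had at most 14 counts in the 4 control libraries together. These 5 passed the filter on low counts through the knockdown libraries, so a large rise was a condition of their being tested. RN7SKP160, at chr1:173791548-173791887 on the plus strand and outside any same-strand gene, had 5, 2, 4 and 3 counts in siNTC, 48, 59, 14 and 19 with si45, 74, 61, 22 and 29 with si46, and 133, 61, 42 and 58 with si47. Every knockdown library was above every control, and replicates 1 and 2 were the highest in all 3 knockdown groups. The level was 0.60 ± 0.23 CPM in siNTC and 5.61 ± 3.11, 7.37 ± 3.41 and 12.2 ± 6.01 with si45, si46 and si47. Over the 3 siRNAs the locus rose by 3.71 on the log2 scale (SE 0.481, edgeR adjusted p = 1.1e-05), and the pooled counts (620 against 14) gave a ratio of 14.5, with a 95% exact counting interval of 8.56 to 26.6. Such intervals cover counting error only.

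RN7SKP118, at chr16:67321658-67321987 on the minus strand, overlaps an exon of KCTD19, a gene with only 83 counts over all libraries and too low to be tested. Its counts were 4, 4, 2 and 2 in siNTC, 30, 46, 11 and 12 with si45, 73, 41, 18 and 21 with si46, and 81, 54, 34 and 28 with si47. Here too 12 of 12 knockdown libraries lay above all controls, and replicates 1 and 2 were above 3 and 4 in each knockdown group. The rise on the log2 scale was 3.48 (SE 0.48, edgeR adjusted p = 8.62e-06) and the pooled ratio 12.2 (6.93 to 23.8). KCTD19 itself had 1.20 ± 0.52 CPM in siNTC and 0.44 to 1.20 CPM on average in the knockdown groups.

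RN7SKP48, at chr4:85100496-85100823 on the plus strand, had 0, 1, 0 and 0 counts in siNTC, 8, 7, 9 and 1 with si45, 21, 18, 3 and 11 with si46, and 20, 14, 9 and 23 with si47. The 144 knockdown counts against 1 control count gave a ratio of 47.1 with a counting interval of 8.31 to 1870, so its size is poorly known (edgeR adjusted p = 0.000381). RN7SKP255 had 0, 0, 2 and 1 counts in siNTC, 9, 18, 3 and 5 with si45, 26, 10, 2 and 14 with si46, and 8, 10, 12 and 17 with si47. Its pooled ratio was 14.6 (4.89 to 71.7), the adjusted p was 0.00286, and 11 of 12 knockdown libraries lay above all controls. Without all libraries numbered 1 the adjusted p was 0.0514. The fitted log2 fold changes, 4.88 for RN7SKP48 and 3.61 for RN7SKP255, were 6.47 without replicate 2 of siNTC and 4.59 without replicate 3 of siNTC, the libraries with most of their control counts.

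RN7SKP175 had 2, 3, 3 and 0 counts in siNTC, 18, 28, 8 and 5 with si45, 33, 43, 4 and 9 with si46, and 40, 20, 20 and 14 with si47. All 12 knockdown libraries were above the controls (pooled ratio 9.88, counting interval 4.94 to 23.2, edgeR adjusted p = 0.00208). RN7SKP175 overlaps an exon of an unnamed same-strand record, AC067930.1, and lies opposite AC067930.4. How a read matching more than 1 of these records was counted is not given in the sources used here. RN7SKP292 lies in an intron of TBC1D14, at chr4:6997012-6997328 on the plus strand, and had 14, 13, 6 and 4 counts in siNTC, 34, 20, 7 and 15 with si45, 40, 27, 9 and 24 with si46, and 47, 24, 19 and 33 with si47. Its groups overlapped in part, with 10 of 12 knockdown libraries above the controls. Its log2 fold change was 1.36 (SE 0.401, adjusted p = 0.0314), and that of TBC1D14, which was not called, was 0.30 (SE 0.115, adjusted p = 0.109). TBC1D14 was above every control in 11 of 12 knockdown libraries. The call for RN7SKP292 was lost without replicate 3 or 4 of siNTC, replicate 1 of si45, replicate 1 of si47 or all libraries numbered 1 (adjusted p up to 0.156).

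**Figure D2:**
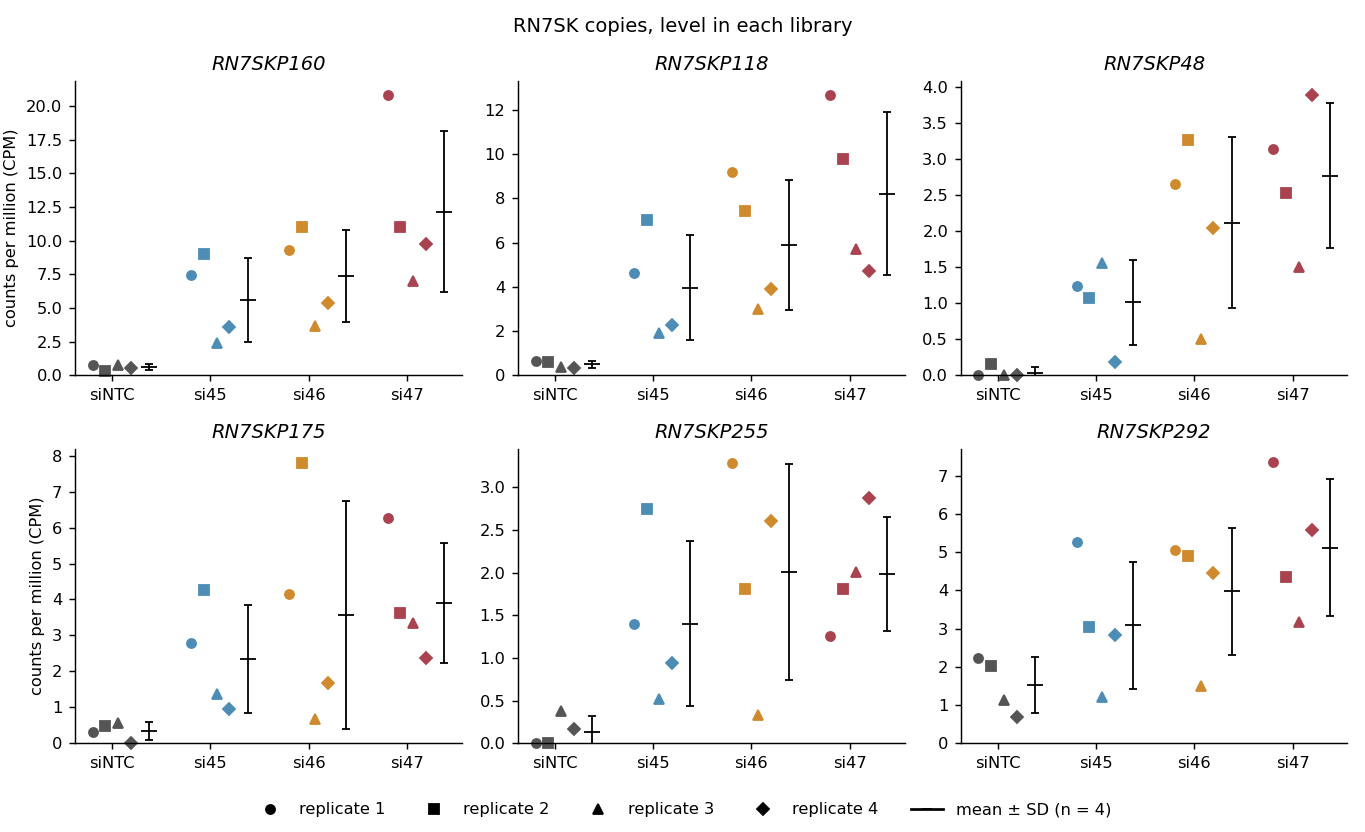
Level in CPM (vertical axes, each from 0) of the 6 RN7SK copies that rose over the 3 siRNAs together. Symbols are single libraries by replicate number and the bar is the mean with its SD (n = 4). Control libraries sit at or near 0 for 5 of the copies, and RN7SKP292 starts from 1.52 CPM.

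The 2 other tested RN7SK copies did not rise. RN7SKP30, in an intron of CLOCK (chr4:55540502-55540835, minus strand), had 65, 117, 75 and 76 counts in siNTC, 76, 61, 90 and 44 with si45, 105, 63, 81 and 50 with si46, and 48, 55, 40 and 61 with si47. It fell with si47 by 0.70 on the log2 scale (SE 0.23, edgeR adjusted p = 0.047), a call lost in 11 of 22 alternatives, among them leaving out 10 of the 16 libraries 1 at a time (adjusted p up to 0.187). The 10 were replicates 2, 3 and 4 of siNTC, replicate 1 of si45, replicates 1, 2 and 3 of si46 and replicates 1, 2 and 3 of si47. CLOCK itself differed by -0.16 with si47 (SE 0.122, adjusted p = 0.452). RN7SKP266, opposite HDAC9 on chromosome 7, went from 7.80 ± 2.51 CPM in siNTC to 4.74 ± 2.38, 4.76 ± 1.47 and 5.26 ± 0.93, a log2 difference of -0.66 (SE 0.254, adjusted p = 0.113).

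The copies of RN7SK differ in how much of the RN7SK sequence they keep, a property that did not enter the choice of genes. A local alignment of each copy with RN7SK gave the share of the 328 bases matched, and a limit of 80% was set after the data were seen. Of 293 copies, 18 matched at least 80%, and 14 of these had a count and 5 were tested: RN7SKP160 (89.9%), RN7SKP118 (90.2%), RN7SKP48 (89.9%), RN7SKP292 (85.4%) and RN7SKP175 (82.6%). Counting all 18, tested or not, their summed level was 3.12 ± 1.11 CPM in siNTC, 17.1 ± 8.52 with si45, 23.8 ± 12.1 with si46 and 33.8 ± 13.5 with si47. The sum was above every control library in 12 of 12 knockdown libraries. It came mostly from the 5 tested copies, since those not tested held 3 of its 75 control counts and 87 of its 1841 knockdown counts. The sum therefore largely restates calls already given. The other 275 copies summed to 27.9 ± 5.14 CPM in siNTC and 24.2 ± 5.05, 27.3 ± 2.71 and 22.8 ± 3.07 with the siRNAs, and 0 of 12 libraries lay above the controls. No test was run on these sums.

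The 13 closely matching copies that were not tested had 3 counts in the 4 control libraries and 87 in the 12 knockdown libraries. RN7SKP55 had 0 control and 28 knockdown counts, RN7SKP227 had 0 and 24, and RN7SKP76, within CDH8, had 0 and 18. RN7SKP187, RN7SKP81, RN7SKP62 and RN7SKP281 were at 0 in every library. RN7SKP255 keeps only 71.6% of RN7SK overall but 97.9% of its first 240 bases, and 50.0% of the 88 after them. RN7SKP30 keeps 89.2% and 58.0% of these stretches, and RN7SKP266 77.9% and 35.2%. The copies that rose and match RN7SK over its whole length keep 80.8% to 89.2% of the first 240 bases and 87.5% to 95.5% of the last 88. RN7SKP30, which did not rise, thus keeps as much of the first stretch as any of these. It also keeps more of the last 88 bases than RN7SKP255, which rose.

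Most RN7SL copies with appreciable counts lay inside expressed genes. Of the 28 tested, 24 (85.7%) lay within a tested gene on the same strand, against 12.6% of the 428 copies without a count. The lowest edgeR adjusted p of these 24 in the mean of the 3 siRNAs was 0.332, and their log2 differences ran from -0.94 to 0.79. RN7SL674P, in an intron of GREB1 (chr2:11584773-11585047, plus strand), had 88, 180, 93 and 100 counts in siNTC, 130, 92, 109 and 91 with si45, 221, 106, 103 and 78 with si46, and 73, 106, 81 and 81 with si47. The groups overlapped (log2 difference -0.17, SE 0.172, edgeR adjusted p = 0.634), and so did those of GREB1 (-0.05, SE 0.116, adjusted p = 0.875).

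RN7SL508P, in an intron of SRRM4, had a level of 11.3 ± 2.66 CPM in siNTC and 11.9, 13.9 and 8.43 CPM with si45, si46 and si47 (log2 difference -0.02, SE 0.219, edgeR adjusted p = 0.975). RN7SL559P, in an intron of EYA3, had 7.36 ± 1.93 CPM in siNTC and 6.59, 5.18 and 4.27 CPM (-0.48, SE 0.273, adjusted p = 0.332), while EYA3 differed by 0.27 (SE 0.172, adjusted p = 0.416). The libraries of both copies overlapped with the controls. Over all 181 RN7SL copies that lie within a tested gene on the same strand, the sum was 112 ± 19.3 CPM in siNTC and 103 ± 17.0, 110 ± 23.5 and 81.3 ± 12.4 with the siRNAs, 0 of 12 libraries being above the controls. With si47 the sum (65.2 to 92.8 CPM) lay below every control library (101 to 141 CPM), while si45 and si46 overlapped with the controls. No test was run on this sum.

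RN7SL336P was the 1 tested RN7SL copy that was called higher. With so few control counts it passed the filter through the knockdown libraries, so a rise was a condition of its being tested. It lies at chr6:89090946-89091242 on the plus strand, outside any same-strand gene, and matches 86.6% of its nearest canonical gene. Its counts were 4, 1, 0 and 0 in siNTC, 10, 11, 2 and 1 with si45, 10, 27, 3 and 6 with si46, and 14, 16, 4 and 7 with si47. The groups overlapped, with 9 of 12 knockdown libraries above the controls and the low ones all numbered 3 or 4. The pooled ratio was 7.25 (3.02 to 22.8) and the log2 fold change 2.71 (SE 0.818, edgeR adjusted p = 0.0369). Replicate 1 of siNTC held 4 of the 5 control counts, and without it the log2 fold change was 4.27. This call was lost in 8 of 20 alternatives, each leaving out 1 library: replicate 2, 3 or 4 of siNTC, replicate 1 or 2 of si45, replicate 2 of si46, or replicate 1 or 2 of si47 (adjusted p up to 0.136). The 496 RN7SL copies outside tested genes, RN7SL336P among them, summed to 15.2 ± 4.70 CPM in siNTC and 21.6 ± 4.86, 20.8 ± 4.22 and 22.2 ± 7.31 with the siRNAs, 5 of 12 libraries being above the controls.

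The Y RNA copies that were tested did not pass. All 5 lie within tested genes on the same strand, and their edgeR adjusted p ran from 0.682 to 0.995. RNY1P9, in an intron of KLHL22 (chr22:20475203-20475311, minus strand), had 51, 29, 35 and 67 counts in siNTC, 56, 48, 48 and 44 with si45, 66, 48, 41 and 31 with si46, and 41, 40, 48 and 49 with si47. Its log2 difference was -0.00 (SE 0.21, edgeR adjusted p = 0.995), where KLHL22 had -0.32 (SE 0.13, adjusted p = 0.133). RNY1P16, in CHPT1, and RNY1P12, in ZBTB11, had log2 differences of -0.02 (SE 0.329) and 0.37 (SE 0.421). The 38 Y RNA copies outside tested genes held only 21 counts in siNTC and 34, 40 and 53 with the 3 siRNAs, an average of 0.88 ± 0.17 CPM against 1.402 ± 0.20, 1.66 ± 0.56 and 2.20 ± 1.22, and the sum was above every control in 11 of 12 libraries.

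**Figure D3:**
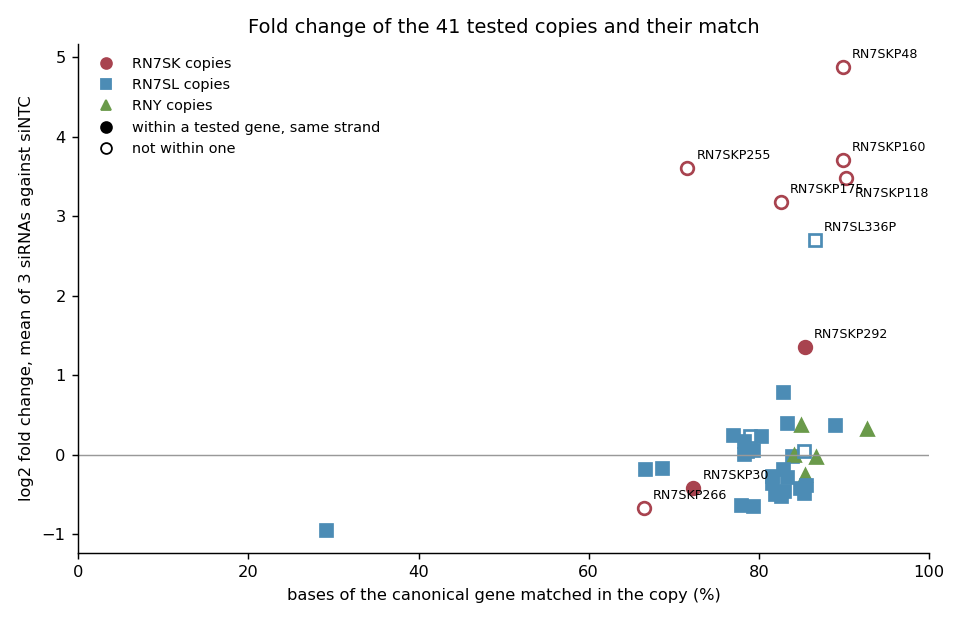
Log2 fold change of each of the 41 tested copies over the 3 siRNAs (vertical axis) against the share of the nearest canonical gene that the copy matches (horizontal axis, %). Filled symbols lie within a tested gene on the same strand and open symbols do not. The open RN7SK symbols lie above 3 except RN7SKP266, and the filled RN7SL symbols lie between -0.94 and 0.79. Copies with few control counts could enter the plot only through counts in the knockdown libraries.

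Summed over all members, tested or not, the families differed in where their counts came from. The RNY sum was 91.3 ± 8.73 CPM in siNTC and 137 ± 20.6, 171 ± 41.3 and 175 ± 43.6 with si45, si46 and si47, with 12 of 12 knockdown libraries above the controls. Canonical genes made up 78.6% of the RNY counts in siNTC and 86.0%, 86.9% and 89.3% with the siRNAs, and the copies stayed between 18.9 and 22.8 CPM in the 4 group means. The RN7SK sum, made of copies alone, went from 31.0 ± 5.33 CPM to 41.3 ± 10.6, 51.1 ± 13.2 and 56.6 ± 15.0, with 11 of 12 libraries above the controls.

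The RN7SL sum was made of parts that differed. It was 152 ± 24.4 CPM in siNTC and 163 ± 26.7, 180 ± 40.3 and 149 ± 37.8 with the siRNAs, and 3 of 12 libraries lay above the controls. Within it, the canonical genes went from 24.4 ± 2.02 CPM to 37.9 ± 6.58, 48.8 ± 16.7 and 45.6 ± 19.8 (11 of 12 libraries above the controls), and their share of the counts from 16.02% to 23.2%, 27.3% and 30.6%. The copies had 128 ± 23.6 CPM in siNTC and 125 ± 21.8, 131 ± 24.8 and 104 ± 18.6 with the siRNAs, with 0 of 12 above. The log2 ratio of the siRNA mean to siNTC was 0.11 for the whole RN7SL family and 0.85 for its canonical genes, against 0.82 for the RNY family and 0.68 for RN7SK. The RN7SL value was 0.23 without replicate 2 of siNTC, 0.05 without replicate 3 of siNTC, 0.07 without replicate 4 of siNTC, 0.06 without replicate 1 of si46 and -0.02 without all libraries numbered 1, so its direction depends on which libraries enter.

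**Figure D4:**
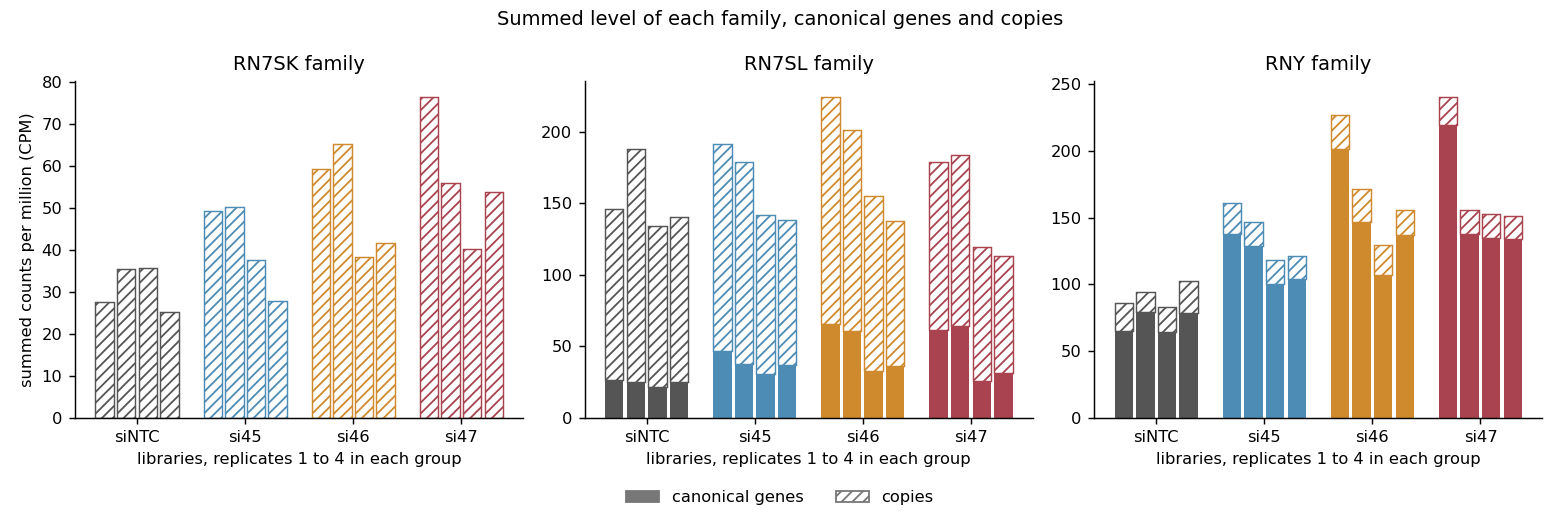
Summed level of each family in every library (vertical axes in CPM, from 0), with canonical genes as the filled part of a bar and copies as the hatched part; each group shows replicates 1 to 4 from left to right. The filled part is taller than in every control in 12 of 12 knockdown libraries for RNY and 11 of 12 for RN7SL, the hatched part of RN7SL in 0 of 12, and RN7SK consists of copies only.

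Between siRNAs, 0 members were called by edgeR for si46 against si45, si47 against si45 or si47 against si46, where 0.0282%, 0.169% and 0.0493% of all tested genes were called. DESeq2 called 0 in each, and 2, 5 and 4 members had an unadjusted p under 0.05. The share of all tested genes with such an unadjusted p is not given here, so these numbers are not read as a difference between siRNAs. Same-numbered libraries of si47 and si45 correlated in their deviations from the group means by 0.120 to 0.242, above the limit of 0.1 used here. For si47 against si45, with the replicate number as a block, 2 members passed. These were RN7SKP160 (log2 difference 1.15, SE 0.275, adjusted p = 0.00954) and RN7SKP118 (1.09, SE 0.309, adjusted p = 0.0365), both higher with si47. Without the block their log2 differences were 1.10 (adjusted p = 0.25) and 1.03 (0.298).

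Genes for the proteins that work with these RNAs were counted by list, against the 3.61% of all tested genes that rose and the 3.53% that fell. Of 11 proteins of the 7SK particle tested, 1 rose over the 3 siRNAs and 0 fell (median log2 difference 0.05, where the median of all tested genes was -0.00). The 1 was HEXIM1, the P-TEFb inhibitor, at 41.7 ± 2.45 CPM in siNTC, 103 ± 22.3 with si45, 109 ± 29.5 with si46 and 111 ± 21.0 with si47, higher in 12 of 12 libraries (log2 fold change 1.36, SE 0.173, edgeR adjusted p = 0.000107). Its relative HEXIM2 (0.18, SE 0.155), the RNA stabiliser LARP7 (-0.07, SE 0.0827) and the capping enzyme MEPCE (-0.17, SE 0.108) were not called.

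Of 8 signal recognition particle and receptor proteins, 1 rose and 0 fell (median 0.16). SRP19, which binds 7SL and helps SRP54 to bind it, went from 14.6 ± 2.18 CPM to 17.2 ± 2.36, 22.6 ± 4.53 and 26.1 ± 5.32 with si45, si46 and si47 (log2 fold change 0.57, SE 0.153, edgeR adjusted p = 0.0179, above all controls in 10 of 12 libraries). Of 12 Y RNA binding proteins, 10 were tested and 1 fell, the splicing regulator PTBP1 (-0.30, SE 0.0767, adjusted p = 0.012), while RO60 itself had -0.10 (SE 0.0703, adjusted p = 0.468). Of 32 genes of the RNA polymerase III machinery the lowest adjusted p over the 3 siRNAs together was 0.101 (SNAPC1, -0.29), and the median log2 difference was 0.01. With si47 alone, where 4.91% of all tested genes rose and 4.83% fell, 1 of the 32 rose, GTF3C6 (0.33, adjusted p = 0.0414), and 1 fell, SNAPC1 (-0.43, adjusted p = 0.0362). Of 30 genes for tailing, trimming and decay of small RNAs, 1 fell, the exosome subunit EXOSC9 (-0.28, SE 0.0814, adjusted p = 0.0309). Also called with si47 alone were AFF4 of the 7SK list (0.34, edgeR adjusted p = 0.0106), IGF2BP1 of the Y RNA list (-0.25, 0.0241) and EXOSC2 of the decay list (-0.42, 0.00794).

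Other short RNAs give the setting. Of 13 other short RNA polymerase III genes with a row, 3 were tested, and RNU6ATAC, the U6atac RNA of the minor spliceosome, rose from 4.26 ± 1.85 CPM to 27.5 ± 12.54, 26.9 ± 10.1 and 38.4 ± 19.6 (log2 fold change 2.83, SE 0.46, edgeR adjusted p = 0.0022). BCYRN1 (0.29, edgeR adjusted p = 0.527) and RNU6-8 (0.45, adjusted p = 0.631) were not called. By their symbols RNU6ATAC and RNU6-8 also belong to the spliceosomal RNA genes given next, so RNU6ATAC is counted as higher in both sets. Small nucleolar RNA genes, made by RNA polymerase II, had 17 of 52 tested higher and 0 lower, and spliceosomal RNA genes 19 of 68 higher and 0 lower, where 3.61% of all tested genes rose and 3.53% fell. A mean control count of at least 10 was reached by 25 of the 52 and 47 of the 68, and the others could enter the test through the knockdown libraries. In sum, the small nucleolar RNA genes had 298 CPM in siNTC and 429, 525 and 602 with the siRNAs (10 of 12 libraries above the controls). The spliceosomal RNA genes had 3222 CPM and 2968, 3613 and 3322 (3 of 12). Of 11 tested Cajal body RNA genes 1 rose and 0 fell (median log2 difference -0.20). Rises of short RNA genes over the 3 siRNAs were thus counted outside the 7SK, 7SL and Y RNA genes too, though most tested genes of each class were not called. Whether the families differ from those classes was not tested. Rows that GENCODE names only as Y RNA, without an RNY symbol and so outside the rule, numbered 756, of which 39 were tested and 2 rose. Of the 169 rows named in this way only as 7SL, 7 were tested and 0 rose.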

How the data were processed

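RNA from the 16 libraries was made into QuantSeq 3' libraries with 15 PCR cycles and sequenced single-end, per the labels' protocols. The deposited table holds whole-number counts per gene, made by the authors. The submitters' processing notes name FastQC 0.11.7, STAR 2.7.2b, edgeR 3.36.0, limma 3.50.3 and GRCh38. The gene annotation, the counting tool, the use of strand and the handling of reads with several matches are not given in the sources used here.

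All 58787 rows were read, and 0 columns of other samples were present. Genes passing edgeR's filterByExpr (minimum count 10, minimum total 15), 14193 in all, were fitted with edgeR 4.0.16 (R 4.3.3) by the quasi-likelihood test, with TMM scaling, 1 model of the 4 group means, and Benjamini-Hochberg adjustment over all tested genes at 0.05. CPM are counts per 1000000 of the TMM library size. On simulated counts for the comparison of the mean of 3 siRNAs with siNTC, the fit recovered 80.8% of 198 genes changed by 1 on the log2 scale, with 10 false calls among 13992 tested. The changed genes were drawn from all genes past the filter, with the same change for each siRNA. The share recovered therefore need not hold for members with few counts. Alternatives were RLE scaling, no filter, a mean count of at least 10, DESeq2 1.42.0, the replicate number as a block, and leaving out libraries.

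The members and the lists were chosen with earlier results of these data known. Named were all canonical genes, up to 15 copies with the lowest p among those called against siNTC, the 3 copies of each family with the highest mean level, up to 3 called genes per list, TPX2, and the genes holding named copies. RN7SKP55, RN7SKP227, RN7SKP76, HEXIM2, LARP7, MEPCE, RO60, SNAPC1, GTF3C6 and the 4 close copies at 0 were named after their values were seen. Positions and sequences are from GENCODE release 29 on GRCh38, and all 1030 members were found there; matches come from local alignment in Biopython 1.88. The bases downstream of each gene and the mitochondrial genes were not analysed here. Replicate pairs within a group differed by more than sampling noise (chi-square per degree of freedom 4.39 to 10.2). Libraries of the same number correlated in their deviations from the group means by more than 0.1 in all 4 numbers for si45 with si47 only (0.120 to 0.242). The sequences of the 7SL genes are not reported here.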

Additional observations from a re-analysis of the deposited data

Results flagged for a closer look

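In 92 groups of 4 libraries examined (members and family sums), 3 had 1 library far from the others, where chance would give about 4.6. For RN7SKP48 the gap of replicate 2 of siNTC was the group's whole range (1), since it held 0.156 CPM and the other controls 0. For RN7SKP292 replicate 3 of si46, at 1.51 CPM, lay below the others (4.46 to 5.05 CPM), a gap of 0.833 of the range. For the summed RNY family replicate 1 of si47, at 240.4 CPM, lay above the others (151 to 156 CPM), a gap of 0.948 of the range.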

How the results depend on the processing

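Of 1744 alternatives run for the named members against siNTC, 1564 kept direction and side of the threshold, 70 lost a call and 59 gained one, and in 51 the sign of a difference that was not called turned. Between siRNAs 1208 of 1265 kept both, 3 gained a call and in 54 the sign of a difference that was not called turned. No called value turned its sign in these fits (0 in both sets). The count of called members moved from 10 to 6 over the 3 siRNAs, from 9 to 5 for si46 and from 10 to 6 for si47 without all libraries numbered 1. For si45 it moved from 4 to 8 with no filter on low counts, to 7 with DESeq2, to 9 with the replicate block and to 7 without replicate 3 of si46. For si47 it moved to 16 with no filter, 13 higher and 3 lower. For si47 against si45 it moved from 0 to 2 with no filter, to 2 with the replicate block and to 1 without replicate 4 of si47. Leaving out 1 library at a time gave 7 to 12 over the 3 siRNAs, 3 to 7 for si45, 7 to 11 for si46, 7 to 13 for si47 and 0 to 1 for si47 against si45. The cause of these moves was not tested. The RN7SL family log2 ratio moved from 0.11 to 0.85 with canonical genes only, which leaves out its copies, and ran from 0.05 to 0.23 on leaving out 1 library at a time.

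With the replicate block the counts were 11 over the 3 siRNAs, 12 for si46 and 13 for si47. Correlations of same-numbered libraries with siNTC ran from 0.0752 to 0.184 for si45, 0.0387 to 0.112 for si46 and 0.0188 to 0.114 for si47. They did not all exceed 0.1, and libraries of different numbers were not compared. Whether the numbers pair the libraries with siNTC is therefore not known, and these are fits with a shared number only. A filter on the mean count of at least 10 over all libraries left 34 members, and 7 were called over the 3 siRNAs. Depth limits many members: 307 with a count were too low to test, and 16 of the 46 tested had a mean control count under 10.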
